A study of Mus musculus with 2 samples.

Results

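Zbtb20 and 5 related genes of the BTB zinc finger family (Zbtb18, Zbtb37, Zbtb7a, Zbtb44 and Zbtb4) held 64 of the 17755 C-to-U editing sites listed for nuclei of mouse cortical neurons. They are 6 of the 6929 genes in the list. The members were chosen by their gene names and by the number of sites listed for them, which was 4 or more in each. Among the family genes left out, Zbtb14 came nearest with 3 sites, while Zbtb44 and Zbtb4 entered with 4 each. Site numbers are therefore given as a description.

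BTB zinc finger proteins carry a BTB (POZ) domain at the amino end, through which they dimerise and recruit corepressors, and C2H2 zinc fingers, with which they bind DNA. Zbtb20 is known for its part in hippocampal and cortical development and in the formation of astrocytes. Zbtb18, also named RP58, is a repressor needed for the maturation of cortical projection neurons. Zbtb7a (LRF, Pokemon) represses fetal globin genes in red cells, Zbtb4 binds methylated DNA, and less is known of Zbtb37 and Zbtb44.

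One group of 2 libraries was profiled, with no other genotype, treatment or age beside it. The mice had the genotype APOBEC1-YTH, a cytidine deaminase fused to a domain that binds N6-methyladenosine (m6A), so that cytidines near m6A are read as C-to-T changes. Mice were 10 weeks old at their first tamoxifen dose, received 20 mg/kg every 24 hours on 5 days, and were sampled 7 days after the last dose. The cortex was dissociated, nuclei were fixed in 50% ethanol, and nuclei bound by an antibody to NeuN were sorted. The labels name neither the promoter that drives the transgene nor the number of animals behind each library. They name polyA RNA in one field and a stranded kit for total RNA in another.

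The list gives 1 editing level per site and names no library, and how the 2 libraries were combined is stated in no source used here. It gives no spread between libraries and no read depth, so each SD is a spread across sites and no test is given. A low level can be listed only where many reads cover the site, while a high level can also come from few reads. All member levels of at least 10% are values that a small number of reads can give. Whether they rest on few reads was not tested. How far the levels of different genes or gene parts reflect coverage was not tested. In bulk nuclei, fewer cells of a type and less RNA per cell cannot be told apart. Of 5 markers fixed for each cell type, a site was listed for 3 of the neuronal markers (10 sites in all, with Rbfox3 and Tubb3 at 0 sites) and for 4 of the astrocyte markers (139 sites, with Gfap at 0). A site was listed for all 5 oligodendrocyte markers (28 sites), 3 microglial markers (14 sites, with P2ry12 and C1qa at 0) and all 5 vascular markers (50 sites). The part of cells other than neurons in the Zbtb sites was not tested.

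A microRNA gene lies among the Zbtb20 sites described below, and its mature sequence marks that place. It is mmu-miR-568 of Mir568 (RefSeq, GRCm38.p6, chromosome 16, 43640665 to 43640684, plus strand, 20 bases), with the seed, bases 2 to 8, in capitals:
mmu-miR-568: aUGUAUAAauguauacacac

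The 6 genes differed widely in site number. Zbtb20 (chromosome 16, 42875689 to 43634392, plus strand) had 33 sites, a number that 7 genes of the whole list reached or passed. Zbtb18 (chromosome 1, 177442351 to 177450764, plus strand) had 9 sites. Zbtb37 (chromosome 1, 161002922 to 161034864, minus strand) and Zbtb7a (chromosome 10, 81135225 to 81152222, plus strand) had 7 each. Zbtb44 (chromosome 9, 31029720 to 31075885, plus strand) and Zbtb4 (chromosome 11, 69765912 to 69784026, plus strand) had 4 each. Spans are those of RefSeq on GRCm38.p6, the assembly that mm10 names. Per 100 kb of span, introns included, the order was another one, with 107 sites in the short Zbtb18 gene and 4.35 in Zbtb20.

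Over all 64 sites the median editing level was 3.10% (range 1.08% to 16.7%), beside 3.64% over the whole list with quartiles of 2.01% and 6.90%. Zbtb20 held 33 of these sites, and the 31 sites of the other 5 genes had a median of 5.88% (1.21% to 16.7%), above that of the list. The highest median was that of Zbtb44, 8.21% (4.88% to 16.7%). Zbtb18 and Zbtb37 followed at 6.25% each, with ranges of 1.46% to 15.4% and 1.21% to 14.3%. Zbtb4 had a median of 5.60% (4.76% to 14.3%) and Zbtb7a one of 3.17% (1.32% to 13.3%). Zbtb20 had the lowest, 2.17% (1.08% to 16.7%). The ranges of all 6 genes overlapped, so no neighbours in this order were separated by more than the spread across their sites. As means, Zbtb20 stood at 3.65% ± 3.69 (SD across sites) and Zbtb18 at 6.77% ± 5.06. Levels of at least 10% were listed for 12 of the 64 sites (18.8%), beside 14.9% of all listed sites, and for 10 of the 31 sites outside Zbtb20. Each gene had at least 1 such site, Zbtb18 had 4, and Zbtb20, with the most sites, had 2. In Zbtb20, 14 of 33 sites were under 2%, beside 24.6% of all listed sites.

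**Figure D1:**
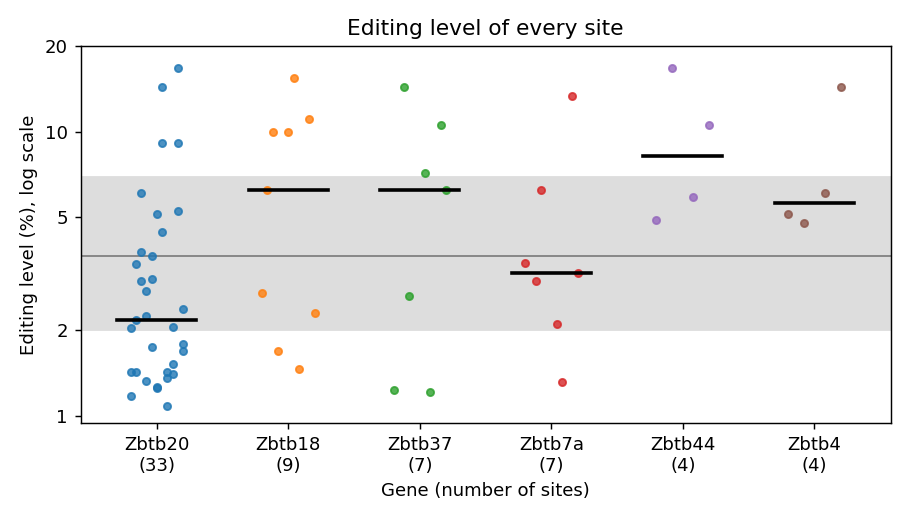
Editing level in percent (log axis) of every site of the 6 genes, 1 point per site, with a black bar at each gene's median; the grey band runs from the lower to the upper quartile of the whole list and the grey line is its median of 3.64%. The median of Zbtb20 (2.17%) is the lowest, while all 6 genes have sites above 10%.

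Zbtb20 carried nearly all of its sites at the far end of a gene span of 758.7 kb. The first 2 sites, at positions 43569749 and 43609502, lay 64.6 kb and 24.9 kb before the end of the span and were both at 1.43%. The other 31 sites followed within 23.3 kb, from position 43618620 to 43641907. That stretch, marked off after the positions had been seen, held 1.33 sites per kb. The sites were not evenly spread in it, with 8.23 per kb over its first 972 bases and 1.09 per kb over the rest.

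The dense stretch opened with 8 sites in 972 bases, in which 3 sites of higher level stood between sites of low level. Sites at 43618620 and 43618777 were at 1.33% and 2.38%. The next 3, at 43618902, 43619104 and 43619294, were at 14.3%, 6.06% and 16.7%. The last 3, at 43619552, 43619588 and 43619592, were at 1.26%, 1.42% and 1.40%. The highest level of the gene thus stood 258 bases from one that was 13.2 times lower. These 3 sites above 6% were the only ones at that level among the 21 sites inside the span.

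In the rest of the span, 11 further sites ran from 43620765 to 43630361. Their levels were 3.03%, 2.04%, 1.36%, 2.74%, 1.69% and 4.44% up to position 43622851. From 43624664 on they were 2.97%, 5.26%, 5.13%, 2.17% and 2.06%. All 11 levels were below those of the 3 high sites upstream, of which the lowest was 6.06%.

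The remaining 12 Zbtb20 sites lay past the 3′ end of the RefSeq span, by 226 to 7515 bases. They were listed under Zbtb20 and on its strand. Among sites of all genes matched to RefSeq, 1.45% lay outside the span, and no other gene had as many (the next had 7). As a share of a gene's own sites, the 36.4% of Zbtb20 was passed in other genes. Among these were 4930488L21Rik (7 of 8 sites) and Abhd2 (4 of 5). In order, the levels of the 12 Zbtb20 sites were 3.64%, 1.17%, 1.08%, 2.25%, 1.79% and 9.09% up to position 43638466. From 43639231 on they were 3.77%, 9.09%, 1.25%, 3.41%, 1.52% and 1.74%. The median past the end was 2.02% (1.08% to 9.09%), and that of the 19 dense sites before it was 2.38% (1.26% to 16.7%), with overlapping ranges. No source used here gives the gene models with which the sites were named. Whether this stretch belongs to a longer Zbtb20 transcript was not tested.

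Mir568, whose mature sequence is printed above, lies in this outer stretch, 6.26 kb past the end of the Zbtb20 span (hairpin at 43640655 to 43640737, plus strand). The hairpin itself held 0 sites. A Zbtb20 site at 1.25% stood 427 bases before it, at 43640228, and one at 3.41% stood 5 bases after it, at 43640742. Within 1 kb on either side there were 4 Zbtb20 sites.

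Tigit, which encodes an inhibitory receptor of T cells and natural killer cells, overlaps the same stretch on the minus strand (43626137 to 43665125). Of the Zbtb20 sites, 16 lay inside the Tigit span, all on the plus strand, and Tigit had 0 sites of its own. The library kit keeps strand, per the labels, but no source used here says how the strand of a site was set. Further upstream in the Zbtb20 span, 3 sites were listed for other genes, all on the minus strand. Gm37946 had 1 at 3.23%, and the long noncoding RNA gene Gm9968 had 1 at 7.41% and 1 at 6.25%. No sites of other genes were listed inside the spans of Zbtb18, Zbtb37, Zbtb7a, Zbtb44 or Zbtb4.

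**Figure D2:**
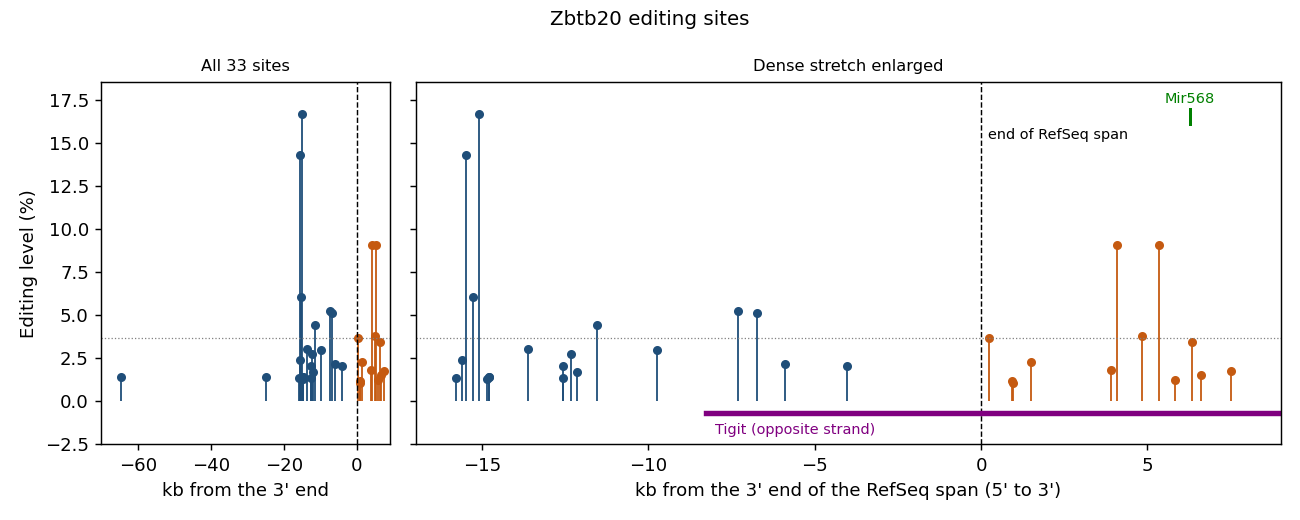
Editing level in percent of the 33 Zbtb20 sites against the distance in kb from the 3′ end of the RefSeq span (dashed line at 0, the gene running left to right), for all sites and enlarged for the dense stretch. Blue sites lie inside the span and the 12 orange ones past it; the green mark is Mir568, the purple bar Tigit on the opposite strand (it runs on to the right), and the dotted line the median of the whole list.

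In Zbtb18 the 9 sites fell into a low and a high group that did not mix along the gene. The 4 upstream sites, at 177447543, 177447935, 177447989 and 177448371, were at 2.7%, 1.46%, 1.69% and 2.30%. The 5 downstream sites, at 177448812, 177449153, 177449192, 177449212 and 177449332, were at 15.4%, 10.0%, 11.1%, 10.0% and 6.25%. The cut between the groups was placed after the levels had been seen, so their separation is a description. Low levels need many reads and high ones can come from few. Whether read coverage differed between the groups was not tested. The highest level of the first group was below the lowest of the second, and the step came within 441 bases. The medians of the groups were 2.00% and 10.0%. All 9 sites lay within 1789 bases, between 3221 and 1432 bases from the 3′ end of the span.

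Zbtb37 showed a like order over a much longer distance. Its 3 upstream sites, at 161032057, 161032044 and 161031895, were at 1.23%, 1.21% and 2.63% and lay within 162 bases. The other 4, at 161017815, 161014052, 161010875 and 161004559, were at 6.25%, 7.14%, 14.3% and 10.5% and were spread over 13.3 kb. Again the cut was placed after the levels had been seen, and the groups did not overlap. Whether their read coverage differed was not tested here either. The upstream group was 29.0 to 29.1 kb from the 3′ end of the span, in a gene of 31.9 kb. The RefSeq span of Gas5, a long noncoding RNA gene on the plus strand, overlaps the start of Zbtb37, but 0 Zbtb37 sites lay inside it and Gas5 had 0 sites.

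Zbtb7a had its sites mostly in a cluster of 5 within 1.10 kb, with 1 outlying site on each side. The upstream site, at 81145012, was at 3.45%. The cluster, at 81148226, 81148332, 81149075, 81149269 and 81149327, had levels of 1.32%, 6.25%, 3.17%, 2.11% and 2.99%. The site nearest the end, at 81151176, was at 13.3%, above all the others. It lay 1046 bases from the end of the span.

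Zbtb44 and Zbtb4 had 4 sites each. In Zbtb44 the sites at 31053690 and 31054080 were at 4.88% and 5.88%, and those at 31069496 and 31074034 were at 16.7% and 10.5%. The upper pair was thus above the lower pair, at 15.4 kb or more from it. In Zbtb4 the sites at 69779795, 69781813 and 69781838 were at 5.13%, 6.06% and 4.76%, and the one at 69782597, nearest the end, was at 14.3%. All 4 Zbtb4 sites were in the last 4.23 kb of the span.

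**Figure D3:**
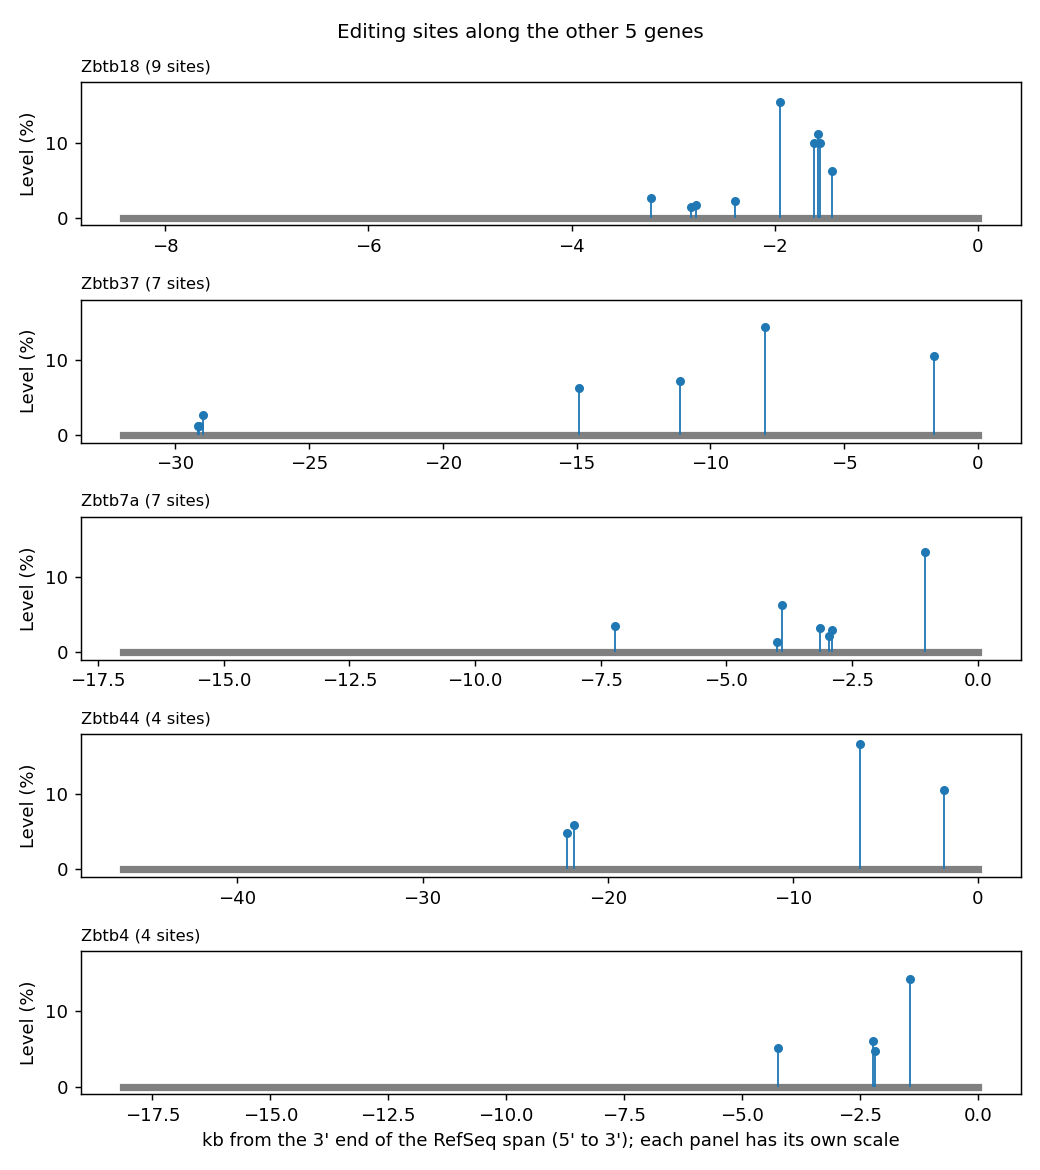
Editing level in percent of each site of Zbtb18, Zbtb37, Zbtb7a, Zbtb44 and Zbtb4 against the distance in kb from the 3′ end of the RefSeq span (grey bar; genes run left to right, each panel with its own distance scale). In Zbtb18 and Zbtb37 the low sites (1.21% to 2.7%) all lie to the left of the high ones (6.25% to 15.4%).

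The order of levels along the genes was compared with that of the other genes, a comparison chosen after the values had been seen. For each gene with at least 4 sites, the mean of the 3′-most sites was divided by that of an equal number of 5′-most sites, leaving out the middle one of an odd number. The mean was higher on the 3′ side in 5 of the 6 genes, beside 69.1% of the 1389 genes, so this order was common in the list and is not read as particular to the 6. Zbtb20 was the exception, at 3.40% on the 3′ side and 3.94% on the 5′ side. In Zbtb37 the means were 10.7% and 1.69%, a ratio of 6.30 that 24 of the 1389 genes reached. In Zbtb18 they were 9.34% and 2.04%, a ratio of 4.58 that 49 genes reached. The ratios of Zbtb44 (2.53), Zbtb4 (1.70) and Zbtb7a (1.67) lay nearer to the median gene (1.39, quartiles 0.91 and 2.13). The 3′-most site had the highest level in 2 of the 6 genes, Zbtb7a and Zbtb4, beside 35.2% of all such genes.

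By distance, 22 of the 52 sites inside the spans of the 6 genes were in the last 5 kb, beside 49.7% of all listed sites inside spans. Without Zbtb20, which had 1 of its 21 inside sites there, the count was 21 of 31 (67.7%), above the share of the list. Of the 22 sites, 9 belonged to Zbtb18, 6 to Zbtb7a, 4 to Zbtb4 and 1 each to Zbtb20, Zbtb37 and Zbtb44. The share of the list pools genes of all lengths, while the spans of Zbtb18, Zbtb7a and Zbtb4 are 8.41 kb, 17.0 kb and 18.1 kb. How far span length sets these counts was not tested. Exons and introns were not told apart for these sites, since only gene spans were used. RefSeq promoter windows were at hand for all 6 genes, 10 windows in all, and 0 of the 64 sites lay in one. Such sites were rare in the whole list (0.901%), so a count of 0 among 64 is near that share.

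Of the 64 sites, 18 (28.1%) had another site of the gene within 100 bases, beside 22.8% of all listed sites. Levels within such groups were alike. The sites formed 10 adjacent pairs, 4 of them in Zbtb20, 3 in Zbtb18 and 1 each in Zbtb37, Zbtb7a and Zbtb4. All 10 pairs were within 2-fold (median ratio 1.12), and the largest ratio was 1.5. The closest pair, 4 bases apart in Zbtb20, was at 1.42% and 1.40%. Its counterpart in Zbtb37, 13 bases apart, was at 1.21% and 1.23%. Among genes other than the 6, 82.9% of 2421 pairs at this distance were within 2-fold (median ratio 1.34).

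Of the adjacent Zbtb20 sites over 100 and up to 1000 bases apart, 4 of 19 pairs were within 2-fold (median ratio 2.41, range 1.03 to 13.2). In the other 5 Zbtb genes 7 of 11 pairs were within 2-fold (median 1.85), and among genes outside the 6 the share was 65.5% of 3041 pairs (median 1.63). Beyond 1000 bases 8 of 9 Zbtb20 pairs were within 2-fold, and 4 of 9 pairs of the other 5 Zbtb genes, beside 60.7% of 5306 pairs in genes outside the 6. Sites a few bases apart are covered by many of the same reads, and pairs that share a site are not independent of each other.

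**Figure D4:**
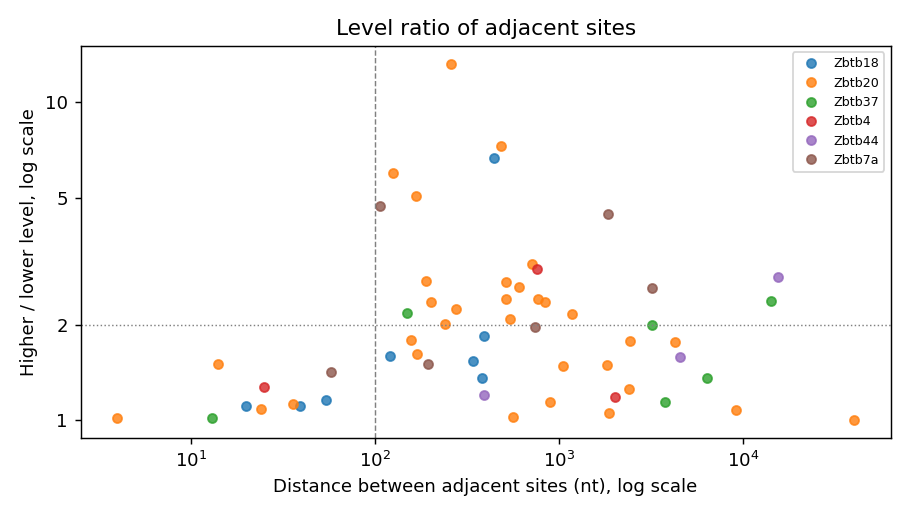
Ratio of the higher to the lower editing level (log axis) against the distance in nucleotides (log axis) for each of the adjacent site pairs of the 6 genes, coloured by gene; the dashed line is at 100 nt and the dotted line at a ratio of 2. All 10 pairs within 100 nt lie at or below 1.5, while pairs at over 100 and up to 1000 nt reach 13.2.

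Across the BTB zinc finger family, 28 of 49 protein-coding genes had at least 1 site (57.1%), beside 28.3% of all protein-coding genes in the RefSeq table. The 6 genes themselves are among the 28, and without them 22 of 43 had a site (51.2%). At least 4 sites were listed for 6 family genes, all of them members by choice, beside 6.18% of protein-coding genes. The family list held 41 genes with Zbtb symbols and 8 with other names. One of them, Zbtb8os, was taken in by its symbol alone. Expression was not measured in the list, so a gene without a site may be unmethylated or not expressed in these nuclei. It may also have had too few reads, or levels below the lowest listed. Which of these holds was not tested.

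The other 22 family genes with a site held 33 sites together, with a median of 5.56% (1.65% to 18.8%). None had more than 3. Zbtb14 had sites at 2.25%, 1.89% and 1.89%. Among those with 2 sites, Bcl6b, a close relative of the germinal centre repressor Bcl6, had 15.4% and 18.8%, the highest level in the family. Zbtb38, which binds methylated DNA like Zbtb4, had 8.33% and 14.3%. Zbtb11 had 2.27% and 15.4%, and Zbtb25 had 6.90% and 10.5%. Patz1 (6.25% and 6.90%), Zbtb39 (5.13% and 10.5%), Zbtb22 (3.45% and 3.64%), Zbtb41 (2.02% and 5.0%) and Zbtb43 (2.27% and 7.69%) also had 2 each. A further 12 genes had 1 site. Among the 21 with 0 sites were Bcl6 and Zbtb16, which encodes the repressor PLZF.

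**Figure D5:**
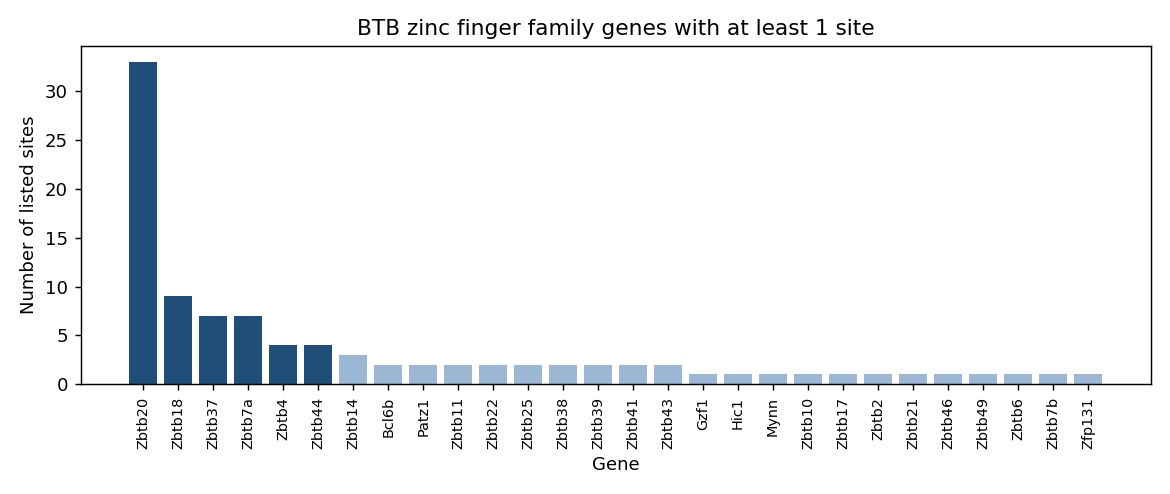
Number of listed sites of each of the 28 BTB zinc finger family genes with at least 1 site; dark bars are the 6 genes described here and light bars the rest. Zbtb20 has 33 sites, the next gene, Zbtb18, has 9, and no light bar passes 3.

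Genes for corepressors and partners known to work with BTB zinc finger proteins were also looked up. Of 10 such genes, 8 had a site, 27 sites in all, beside 28.3% of all protein-coding genes with a site. This list was put together with results on some of its genes known, so nothing is read from that count. The NCoR corepressor gene Ncor1 had 12 sites at a median of 1.51% (1.02% to 3.25%). Tbl1xr1, a subunit of the same complex, had 3 sites (median 1.96%). Hdac3, the deacetylase of that complex, had 1 site at 1.42%. Hdac2 had 2 (3.48%), Sin3a had 1 at 2.30%, and Hdac1 and Sin3b had 0. Bcor, a corepressor that binds the BTB domain of Bcl6, had 2 sites, at 5.41% and 18.2%. The ubiquitin ligase scaffold gene Cul3 had 2 (median 6.67%). The DNA methyltransferase gene Dnmt3a had 4 (2.01%).

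By site number, median level and share of sites in the last 5 kb, the genes most like Zbtb20 were sought among 199 genes with at least 10 sites and a known span. The nearest was Fat3, with 32 sites at a median of 2.31% and 2 of them in the last 5 kb (distance 0.20 in units of SD over the 3 measures). Lrrc58 followed with 33 sites, a median of 2.25% and 6 sites in that window (distance 0.44). Arhgap5 had 28 sites (1.66%, 3 sites, distance 0.85), Dst 29 (1.63%, 5 sites, 0.89) and Xist 23 (1.75%, 4 sites, 1.30). Zbtb20 itself had 1 site in that window (3.03% of its 33 sites), a count that leaves out the 12 sites past the end of the span. With its last listed site taken as the end, the count was 8. No distances are given for that end, so the order of these genes holds for the RefSeq span only.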

How the data were processed

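The authors deposited 1 table for both libraries, with chromosome, position, strand, gene name and editing fraction per site (given here in percent). Per the series description, sites were found with the Bullseye pipeline. The submitters' processing notes name STAR 2.7.5 and mm10. The Bullseye settings, its control and the coverage minimum are stated in no source used here. Listed levels began at 1.00%. Positions are 1-based; of 160 sites in RefSeq promoter windows of the same strand, 160 fell on a C.

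Gene names were matched to RefSeq GRCm38.p6 by symbol, or by a synonym of one gene only, on the same chromosome (6456 of 6929 names). Distances to the 3′ end, neighbouring sites and level ratios were computed in Python 3.11.15 with pandas 2.3.3, and the functions were tested on simulated sites. The members and gene lists were chosen with earlier results of these data known. Named were all member sites, up to 10 other family genes by site number, the partner genes with a site (2 genes of that list are not reported here), the 5 genes most like Zbtb20 and any gene with a site inside a member's span.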

Additional observations from a re-analysis of the deposited data

How the results depend on the processing

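Of 13 recomputed values over the 6 genes or the family, 10 stayed within 1.5 times the value given or, for the median level, within 1 SD across sites. That SD (4.44) is larger than the median level itself: the median of 3.10% became 5.13% with a minimum level of 2%, the mean was 5.08%, and the Zbtb18 median went from 6.25% to 10.0% at that minimum. With a minimum level of 5% the 6 genes kept 24 of 64 sites, and 7 of the 33 in Zbtb20; at 2% they kept 45, and 19 in Zbtb20. With a window of 2 kb, 9 sites lay near the 3′ end against 22 with 5 kb. With a distance of 200 nt, 32 sites had a neighbour against 18. Of all listed sites, 24.6% were under 2%. Shares of the whole list at 5%, 2 kb and 200 nt are not given, so these counts are not compared with it. Taking the last listed Zbtb20 site as the end of that gene, an alternative chosen after seeing the data, put 8 Zbtb20 sites in the last 5 kb against 1, and 29 over the 6 genes. Of 55 values for single genes, 17 moved further than these limits. No paired analysis was possible because the table holds 1 value per site and names no library, and for the same reason no library could be left out. Depth is unknown, so no counting interval can be given.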
